A study of Homo sapiens with 10 samples.

Results

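The enzymes that make and balance deoxynucleotides, the building blocks of DNA, were followed in U2OS cells given the CDK4 and CDK6 inhibitor PD0332991 (palbociclib). The set was chosen by name and holds 9 genes: RRM1, RRM2, DCTD, DUT, TYMS, DTYMK, TK1, DCK and SAMHD1. A gene was measured where the array annotation gave it a probe set with exactly 1 symbol, which held for 7 of the 9, among 14232 genes with such a probe set. DTYMK has no probe set under its symbol in the annotation used, and the SAMHD1 probe set also carries the symbol TLDC2, so neither has a value here. Each of the 7 measured genes had a single such probe set, so no choice among probe sets was needed. U2OS is a human osteosarcoma line, and all 10 arrays come from it. The cells were seeded at 25% density, grown for 30 h with 10% serum and then exposed for 4 h to PD0332991 (5 biological replicates) or to its solvent DMSO (5 biological replicates). According to the labels the dose was 1 mM, and no other source was at hand to check that unit. The names of the arrays form 2 series, called array sets here. In both treatments replicates 1, 2 and 3 belong to set 1, and replicates 4 and 5 to set 2.

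Ribonucleotide reductase, built from the large catalytic subunit RRM1 and the small radical-bearing subunit RRM2, converts ribonucleotides into deoxynucleotides. Thymidylate needs extra steps: DCTD deaminates dCMP to dUMP, DUT (dUTPase) makes dUMP from dUTP and keeps uracil out of DNA, TYMS methylates dUMP to dTMP, and DTYMK phosphorylates dTMP. TK1 and DCK salvage thymidine and deoxycytidine from outside the pathway, and SAMHD1 breaks deoxynucleoside triphosphates down. In proliferating cells RRM2, TYMS and TK1 are known as genes of the G1/S transition under E2F control, and inhibitors of CDK4 and CDK6 act upstream of E2F by keeping RB in its active form.

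The sequences before the transcript starts are shown because E2F control of several of these genes is part of the background to the comparison. RefSeq start sites of GRCh38.p14 gave 15 windows of 250 bases for the 9 genes. They were searched on both strands for 3 kinds of motif. The E2F forms searched were TTCCCGC, also TTCGCGC, then TTGCCGC and lastly TTGGCGC. The CCAAT box, bound by NF-Y, was searched by the letters in its name. The cell cycle genes homology region, CHR, was searched as TTTGAA and also as TTCGAA. The reverse strand of CCAAT can overlap the E2F form TTGGCGC. The windows of DUT, RRM2 and DCK, the genes with the smallest p in the comparison, are printed with that of DCTD, in which no motif was found, 5′ to 3′ with matches in capitals.
DUT, start 4, chr15:48331947-48332196, + strand: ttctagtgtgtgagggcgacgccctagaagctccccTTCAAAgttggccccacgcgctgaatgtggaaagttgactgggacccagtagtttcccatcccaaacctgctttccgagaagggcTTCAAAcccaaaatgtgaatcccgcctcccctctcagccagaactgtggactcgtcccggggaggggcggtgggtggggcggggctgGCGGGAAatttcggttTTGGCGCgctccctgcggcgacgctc
RRM2, start 1, chr2:10122489-10122738, + strand: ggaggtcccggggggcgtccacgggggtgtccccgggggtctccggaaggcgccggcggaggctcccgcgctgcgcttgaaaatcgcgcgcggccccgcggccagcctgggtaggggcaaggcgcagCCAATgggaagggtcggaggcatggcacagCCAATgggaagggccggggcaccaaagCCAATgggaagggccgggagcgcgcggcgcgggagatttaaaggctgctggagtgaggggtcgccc
DCK, chr4:70993399-70993648, + strand: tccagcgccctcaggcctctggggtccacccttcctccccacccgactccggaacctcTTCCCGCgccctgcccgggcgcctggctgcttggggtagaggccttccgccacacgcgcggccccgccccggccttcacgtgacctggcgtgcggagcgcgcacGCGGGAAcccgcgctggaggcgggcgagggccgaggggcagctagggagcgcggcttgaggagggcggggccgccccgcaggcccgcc
DCTD, start 1, chr4:182917612-182917861, - strand: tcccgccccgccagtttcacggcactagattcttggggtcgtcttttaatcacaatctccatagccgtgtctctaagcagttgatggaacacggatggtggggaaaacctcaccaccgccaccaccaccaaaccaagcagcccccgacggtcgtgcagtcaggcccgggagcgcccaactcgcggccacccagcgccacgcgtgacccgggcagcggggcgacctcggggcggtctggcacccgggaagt
An E2F match was present in 6 of the 15 windows, those of TYMS, RRM1, DCK, start 2 of TK1, start 2 of RRM2 and start 4 of DUT, against 10.9% of the 35116 windows in the table. CCAAT matches lay in 6 windows (32.0% of all windows) and CHR matches in 3 (14.3%). Start 1 of RRM2 carried 3 CCAAT boxes and no E2F match, and start 4 of DUT carried 2 E2F and 2 CHR matches. DUT starts 1, 2 and 3 held no match of any kind. The RRM1 window held all 3 kinds of motif, and the treatment difference of RRM1 was 0.04 (log2). Whether matches go with the treatment difference was not tested. Such matches are letters in a window and do not show that a factor binds there, and the arrays do not tell which of the 4 DUT starts or 2 RRM2 starts was in use.

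**Figure D1:**
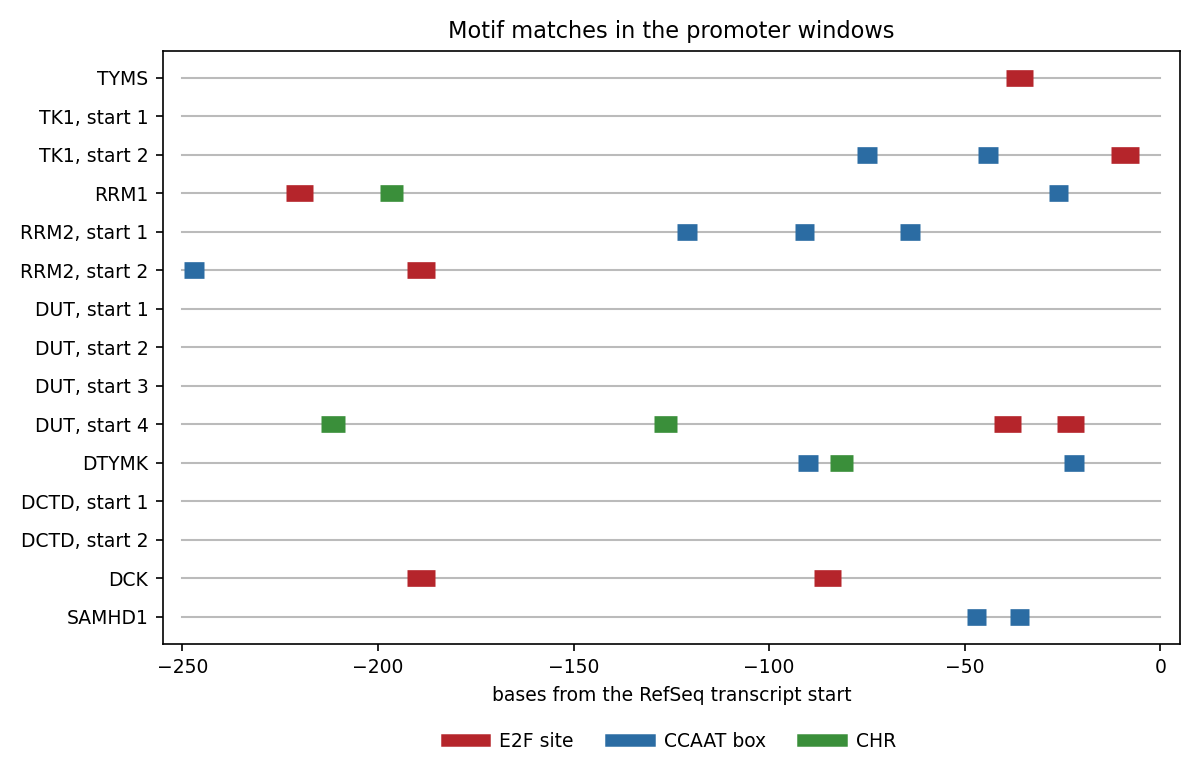
Matches to the E2F, CCAAT and CHR motifs in the 250 bases before each RefSeq start, by distance from the start in bases; each line is 1 window and each block 1 match on either strand. The TYMS E2F match starts 39 bases before the start, the second TK1 window has a match 12 bases before it, and the DCTD windows hold none.

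The array values are log2 expression, with medians of 6.95 to 7.06 per array, and the number of arrays limits their precision. Levels of different probe sets are not comparable, so only differences between arrays are read. Marker genes of the labelled cell type were read as a description, since a probe set's brightness also depends on its probes, and they give no test of identity. Of the 7 mesenchymal and osteoblast markers, VIM, FN1, SPARC and COL1A1 had mean log2 values of 11.35 to 12.04, while RUNX2, COL1A2 and ALPL had 7.67, 6.55 and 6.24, near the array medians or under them. Of the 5 epithelial markers, KRT8 and KRT18 had 11.70 and 10.85, CLDN4 7.20, EPCAM 5.78 and CDH1 5.55. Of the 4 measured blood markers, PTPRC lay under the lower quartile on all 10 arrays (mean 3.90), and CD3E, CD4 and HBB, at means of 4.99 to 5.09, did not on every array. The summed log2 levels of the 7 mesenchymal and osteoblast markers ran from 66.8 to 68.8 on DMSO arrays and from 67.3 to 68.6 after treatment. One control array stood apart: DMSO replicate 1 differed from the other DMSO arrays of its set by a median of 0.41 on the log2 scale, where the other 9 arrays differed from theirs by 0.13 to 0.30. Its interquartile range was also the narrowest, 3.18 against 3.32 to 3.68. Values without it are given for the 7 enzymes and wherever it moved a list, or a treatment difference printed for a gene, by over 1.5 times. The source of its difference was not tested.

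Deoxynucleotide enzyme transcripts were not called different after 4 h of PD0332991. Of the 7 measured genes, 5 had a log2 difference below 0 and 2 above it, where 55.2% of all probe sets were below 0, with a median of -0.14, where the median of all 21980 probe sets was -0.02. In limma, adjusted over all probe sets, 0 of 7 passed (adjusted p = 1.00 for each), against 0.050% of probe sets in either direction (0.0409% lower, 0.00910% higher). At an unadjusted p under 0.05, DUT alone was lower, 1 of 7 against 2.76% of all probe sets lower and 4.17% in either direction. This count depended on the normalization and on array weights, as given below. DUT was also the only gene of the 7 whose treated arrays all lay below the DMSO arrays of their own set, an order held by 1.45% of probe sets, and none lay above throughout, as 0.814% of probe sets did. Without DMSO replicate 1 again 0 of 7 passed, against 0.105% of probe sets, but RRM2, DUT and DCK then had an unadjusted p under 0.05 (3.72% of all probe sets were lower at that level) and the same 3 were free of overlap (3.05% of probe sets were lower in this way and 1.62% higher). In that fit 6 of the 7 genes were below 0, against 47.4% of all probe sets. The median of the 7 genes stayed at -0.14 while that of all probe sets moved to 0.01. Cultures with fewer cells in S phase and cultures with less transcript per cell cannot be told apart in bulk RNA.

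**Figure D2:**
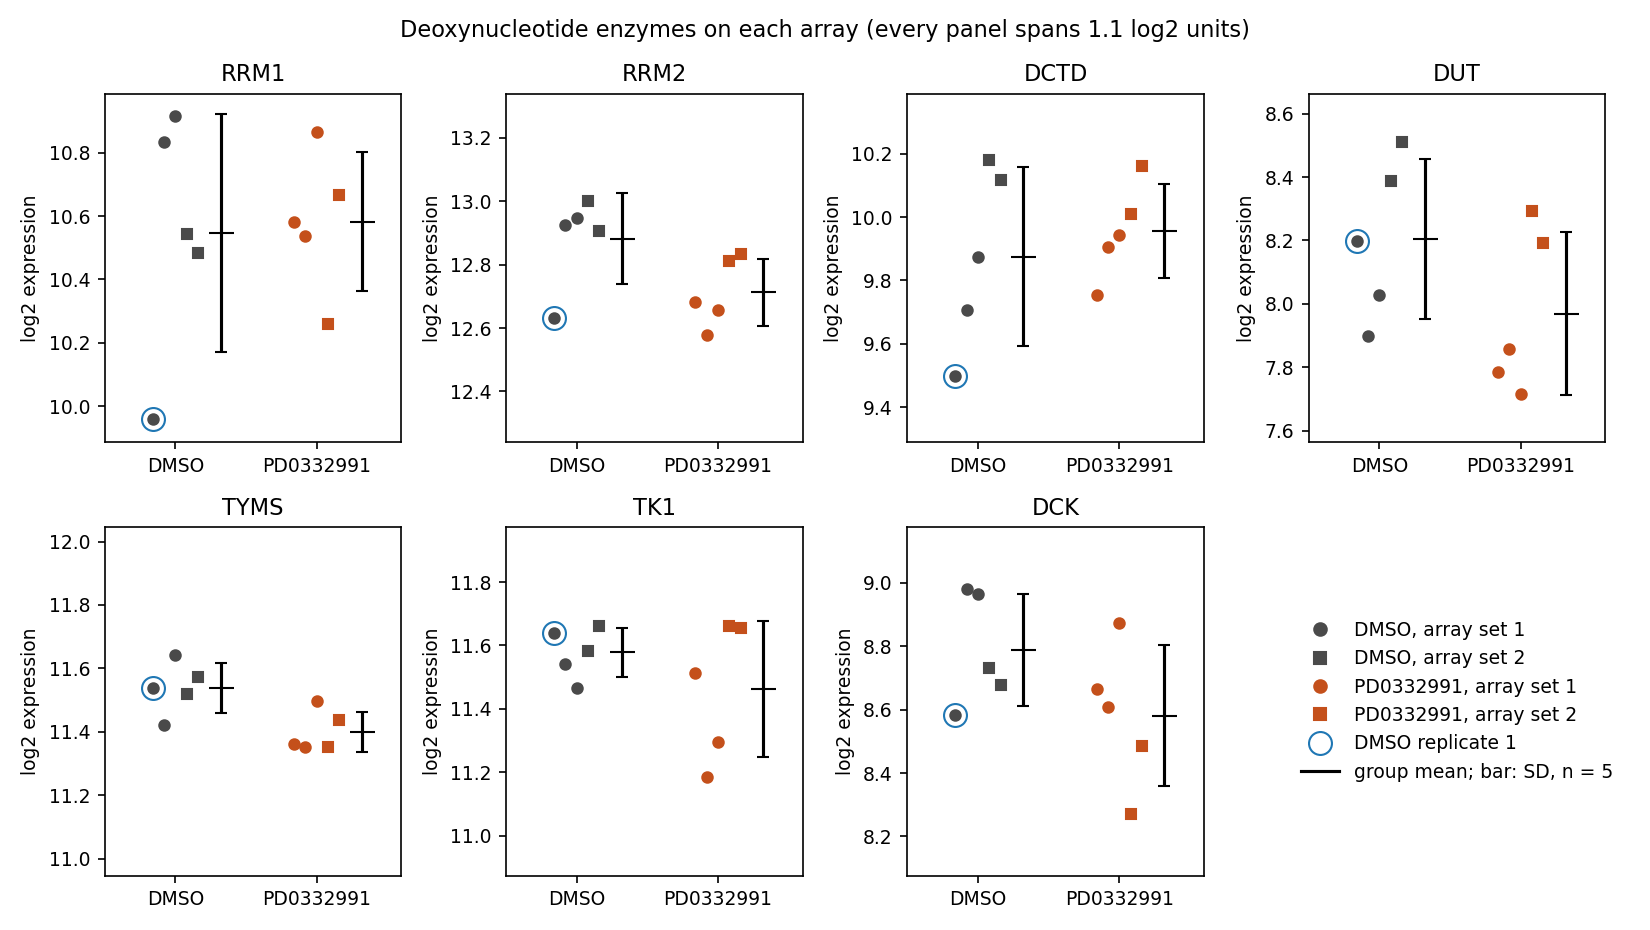
Log2 expression of the 7 measured enzymes on each of the 10 arrays; points are arrays, circles are array set 1, squares array set 2, and bars give the group mean and SD (n = 5). DMSO replicate 1, ringed, has the lowest DMSO value for RRM1, RRM2, DCTD and DCK, and the treated DUT points lie below the DMSO points of the same shape.

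The large reductase subunit RRM1 had no treatment difference past the threshold. On the DMSO arrays it read 9.96, 10.83, 10.91, 10.54 and 10.48 (log2, replicates 1 to 5), and after PD0332991 10.58, 10.54, 10.86, 10.26 and 10.67. All treated values fall within the range of the DMSO arrays. The group means were 10.55 ± 0.38 and 10.58 ± 0.22 (SD, n = 5), a log2 difference of 0.04 ± 0.18 (SE, 95% confidence interval -0.37 to 0.45, limma adjusted p = 1.00). The sign was not stable. Without DMSO replicate 1 the difference was -0.14 (-0.39 to 0.12), and without PD0332991 replicate 3 or 5 it was -0.03 or -0.01. The interval with all arrays reaches from a 1.30-fold decrease to a 1.36-fold increase, so changes smaller than these were not resolved.

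RRM2, the subunit whose abundance is known to follow S phase, read 12.63, 12.92, 12.95, 13.00 and 12.91 in DMSO and 12.68, 12.58, 12.66, 12.81 and 12.83 after treatment (log2, replicates 1 to 5). Every treated value was below DMSO replicates 2 to 5, and only DMSO replicate 1 lay among the treated arrays. RRM2 had a log2 difference of -0.17 ± 0.09 (SE, n = 5, limma unadjusted p = 0.0955, adjusted p = 1.00). Without DMSO replicate 1 the DMSO mean was 12.94 ± 0.04 (SD), and the difference was -0.22 ± 0.07 (limma unadjusted p = 0.0147, adjusted p = 0.627). With all arrays the confidence interval of -0.38 to 0.04 leaves decreases beyond 1.30-fold outside it.

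Among the enzymes that lead to thymidylate, DUT had the largest difference of the 7 genes. Its probe set read 8.20, 7.90, 8.03, 8.39 and 8.51 in DMSO and 7.78, 7.86, 7.72, 8.29 and 8.19 after treatment (log2, replicates 1 to 5). Within set 1 the highest treated array was 7.86 against a lowest DMSO array of 7.90, so the groups were only just apart, and within set 2 the gap was 8.29 to 8.39. The log2 difference was -0.24 ± 0.09 (SE, n = 5), with a 95% confidence interval of -0.44 to -0.03, a limma unadjusted p of 0.0269 and an adjusted p of 1.00. It was -0.26 in set 1, -0.21 in set 2, and -0.19 without DMSO replicate 1. The rank was not stable. Without DMSO replicate 1, DCK (-0.29) and RRM2 (-0.22) had larger differences than DUT. With array weights they did too (-0.32 and -0.20, against -0.18 for DUT). With all arrays, a lower log2 difference was found for 9.24% of all probe sets.

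TYMS, the methylating enzyme and the target of fluoropyrimidine drugs, read 11.54, 11.42, 11.64, 11.52 and 11.57 in DMSO and 11.36, 11.35, 11.50, 11.35 and 11.44 after PD0332991 (log2, replicates 1 to 5). The treated group overlapped DMSO through replicates 3 and 5, which stood above DMSO replicate 2. TYMS had a log2 difference of -0.14 ± 0.09 (SE, n = 5, 95% confidence interval -0.33 to 0.05, limma adjusted p = 1.00), with -0.13 in set 1, -0.15 in set 2 and -0.14 without DMSO replicate 1. Decreases beyond 1.26-fold lie outside its interval.

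DCTD, which supplies dUMP from the cytidine side, leaned the other way. Its DMSO values were 9.50, 9.71, 9.87, 10.18 and 10.12, and its treated values 9.75, 9.91, 9.94, 10.01 and 10.16 (log2, replicates 1 to 5). The array sets opposed each other, with 0.18 in set 1 and -0.06 in set 2. The joint log2 difference of 0.08 ± 0.11 (SE, n = 5, 95% confidence interval -0.15 to 0.31, limma adjusted p = 1.00) went to 0.01 without DMSO replicate 1, the lowest DMSO array.

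TK1 and DCK are the salvage kinases of the set, and neither passed. TK1 read 11.64, 11.54, 11.47, 11.58 and 11.66 in DMSO and 11.51, 11.19, 11.30, 11.66 and 11.66 after treatment (log2, replicates 1 to 5). The low treated arrays were replicates 2 and 3, and both set 2 arrays were at DMSO level. Its log2 difference was -0.12 ± 0.10 (SE, n = 5, 95% confidence interval -0.34 to 0.11, limma adjusted p = 1.00), made up of -0.22 in set 1 and 0.04 in set 2, and -0.08 without DMSO replicate 1. The difference between the sets was 0.25 by limma's interaction term (unadjusted p = 0.241, adjusted p = 1.00).

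For DCK the arrays read 8.58, 8.98, 8.96, 8.73 and 8.68 in DMSO and 8.67, 8.61, 8.87, 8.27 and 8.49 after treatment (log2, replicates 1 to 5). Treated arrays were below DMSO arrays throughout set 2, and in set 1 below DMSO replicates 2 and 3, while DMSO replicate 1 lay under all 3 of them. DCK had a log2 difference of -0.21 ± 0.11 (SE, n = 5, 95% confidence interval -0.46 to 0.05, limma unadjusted p = 0.10, adjusted p = 1.00). It was -0.13 in set 1 and -0.33 in set 2. Leaving out DMSO replicate 1 gave -0.29 ± 0.09, a limma unadjusted p of 0.00895 and an adjusted p of 0.538. No gene of the 7 had an interaction of treatment and array set with an unadjusted p under 0.05, where 2.56% of probe sets did, and 0 of 21980 probe sets passed after adjustment.

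RRM2, TK1 and DCK have counterparts that also serve resting cells or mitochondria, and these 3 pairs were compared within arrays. RRM2B is the small reductase subunit known as a p53 target, and TK2 and DGUOK are the mitochondrial thymidine and deoxyguanosine kinases. The difference between RRM2 and RRM2B was lower on treated arrays and passed the test, by a margin that rested on small gaps. On DMSO arrays RRM2 minus RRM2B was 4.05, 3.64, 3.66, 4.19 and 3.94, and on treated arrays 3.35, 3.63, 3.37, 3.89 and 3.81 (log2 difference within an array, replicates 1 to 5). Each treated array was below the DMSO arrays of its set, by as little as 3.63 against 3.64. The change was -0.29 (95% confidence interval -0.54 to -0.04), with p = 0.0167 in an exact 2-sided permutation test within array sets (120 assignments, smallest possible p 0.0167) and 0.0250 after Benjamini-Hochberg adjustment over the 3 pairs. It is the joint result of -0.17 for RRM2 and 0.12 for RRM2B, neither past the threshold alone. Single genes were adjusted over all probe sets and the pair over the pairs only, so these calls are not comparable. Without DMSO replicate 1 RRM2B had -0.01, and the pair had -0.21 with an exact permutation p of 0.050, or 0.0750 adjusted.

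DCK behaved alike against DGUOK. DCK minus DGUOK was 0.24, 0.09, 0.18, -0.40 and -0.22 on DMSO arrays and -0.49, -0.30, -0.03, -0.72 and -0.43 on treated arrays (log2 difference within an array, replicates 1 to 5). Both array sets separated fully, the second by -0.40 against -0.43. The change was -0.37 (95% confidence interval -0.62 to -0.12, exact permutation p = 0.0167, adjusted p = 0.0250), from -0.21 for DCK and 0.16 for DGUOK. Without DMSO replicate 1 DGUOK had 0.05, and the pair had -0.34 with an exact permutation p of 0.050, or 0.0750 adjusted. Both calls were lost with any 1 array left out other than PD0332991 replicate 2 (adjusted p = 0.050 to 0.10). Unequal change within these pairs was therefore called with all arrays but was not stable. How often other gene pairs would separate in this way was not tested. A pair difference also does not tell which partner moved.

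For TK1 minus TK2 the groups overlapped. DMSO arrays gave 3.66, 3.20, 3.10, 2.92 and 2.89, and treated arrays 3.17, 2.83, 3.07, 2.96 and 3.19 (log2 difference within an array, replicates 1 to 5). DMSO replicate 1 was far above the rest. The change was -0.11 (95% confidence interval -0.47 to 0.25, exact permutation p = 0.55, adjusted p = 0.55), and 0.01 without that array. TK2 itself had a log2 difference of -0.0048, or -0.086 without that array.

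**Figure D3:**
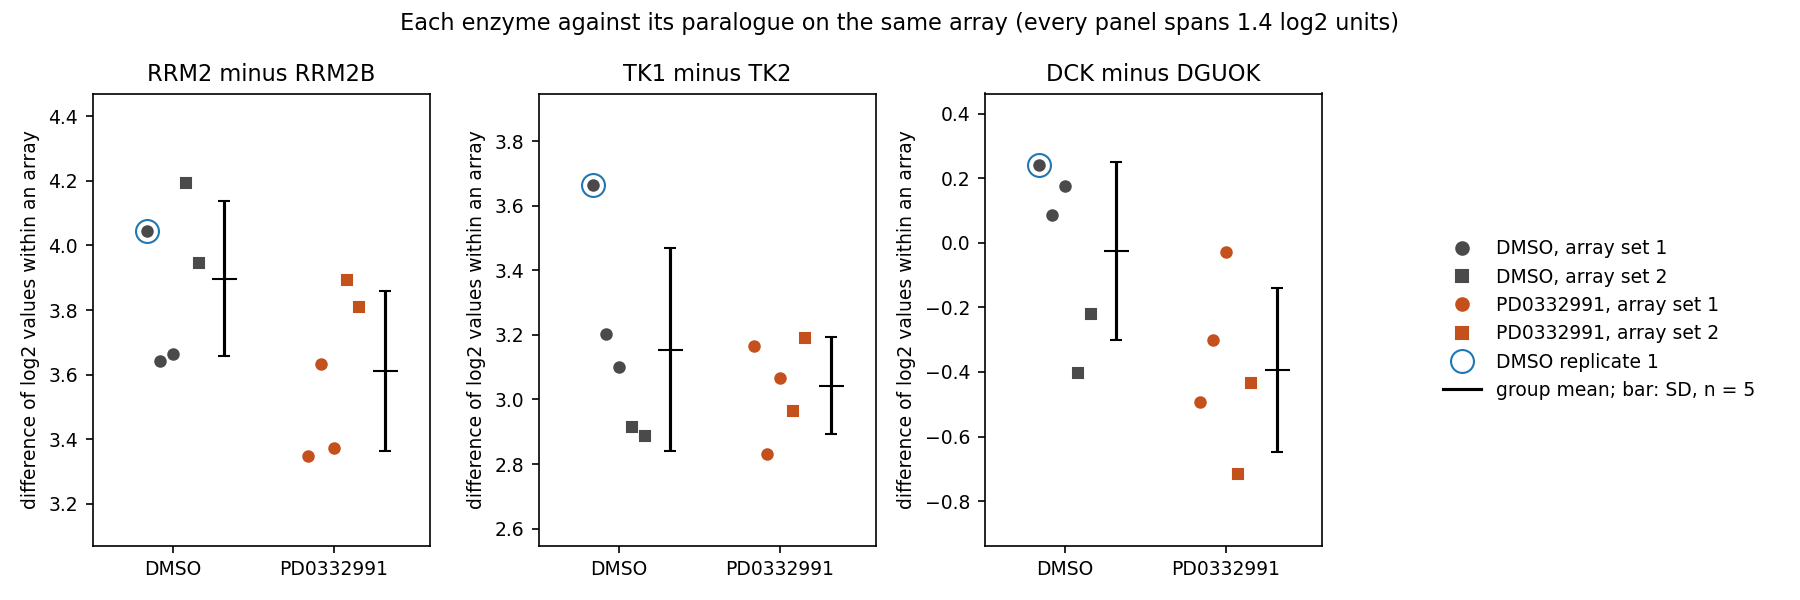
Log2 value of each enzyme minus that of its counterpart on the same array, by treatment. Circles are array set 1, squares array set 2, and bars give the group mean and SD (n = 5). For RRM2 minus RRM2B and DCK minus DGUOK the treated points lie below the DMSO points of the same shape, and for TK1 minus TK2 they overlap.

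The enzymes were set beside other genes of the G1/S program on the same arrays. CCNE1 and CCNE2, the E-type cyclins that activate CDK2, had log2 differences of -0.95 and -1.89 and both passed (limma adjusted p = 0.00911). Both lost the call without DMSO replicate 4 or 5 or PD0332991 replicate 1, 4 or 5, each left out alone (adjusted p = 0.0521 to 0.0590). The CCNE1 interval spans a 1.67-fold to 2.25-fold decrease, and the 7 enzyme intervals end at decreases of 1.11-fold (DCTD) to 1.38-fold (DCK). No enzyme interval therefore reached the CCNE1 interval. CCNE1 and CCNE2 were already known to pass on these arrays, so they are an extreme for comparison, and the difference itself was not tested. The MCM genes, which encode the replicative helicase, had values nearer to those of the enzymes: 5 of 6 were measured, all 5 were below 0, and their median was -0.31, against -0.14 for the enzymes. MCM2 had -0.31 ± 0.08 and MCM5 -0.35 ± 0.10 (SE, n = 5), and none of the 5 passed (limma adjusted p = 0.635 to 1.00). At a limma unadjusted p under 0.05 these 2 of the 5 were lower (2.76% of all probe sets). The same 2 had all treated arrays below the DMSO arrays of their set (1.45%). Without DMSO replicate 1, 4 of the 5 had this order (3.05%), and the median was -0.33. MCM6 had -0.15, or -0.23 without that array.

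**Figure D4:**
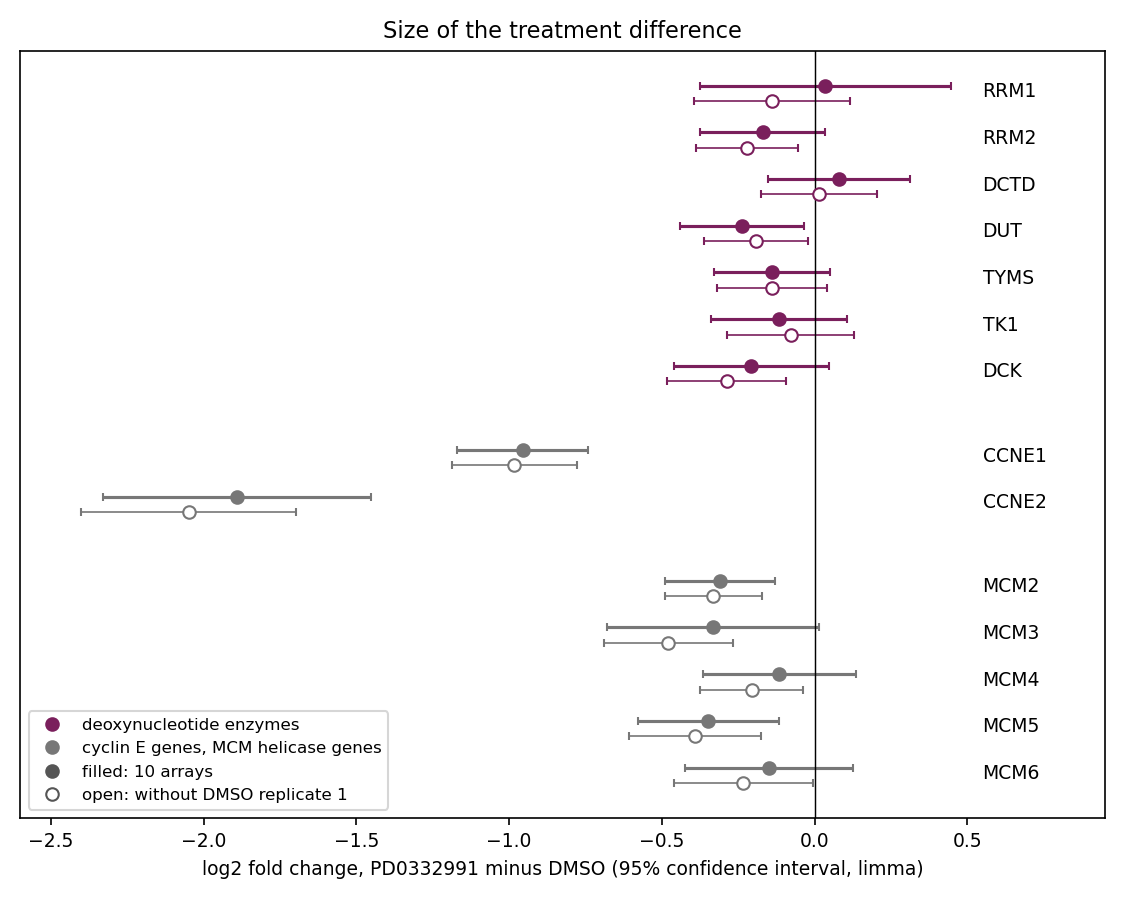
Log2 fold change of PD0332991 against DMSO with its 95% confidence interval (limma) for the 7 enzymes, the cyclin E genes and the measured MCM genes; filled points use all 10 arrays and open points leave out DMSO replicate 1. The enzymes lie between -0.24 and 0.08, and CCNE1 and CCNE2 at -0.95 and -1.89.

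The surrounding nucleotide metabolism was covered by 9 lists with 74 genes, of which 60 were measured. In limma 0 of 60 passed, 36 were below 0 (60.0%, against 55.2% of all probe sets) and 24 above, and the median was -0.02, against -0.02 over all probe sets. Without DMSO replicate 1, 36 were again below 0, against 47.4% of all probe sets. At an unadjusted p under 0.05, 1 was lower (SLC19A1, the reduced folate carrier) and 0 were higher, against 2.76% lower over the table. Without DMSO replicate 1, PPAT of the purine list (-0.27), SHMT1 (-0.30) and SLC19A1 (-0.18) were lower at that level (3.72% of all probe sets). Their limma adjusted p was 0.455 to 0.793. Then 3 of the 60 had all treated arrays below the DMSO arrays of their set (3.05% of all probe sets). With all arrays 1 had (1.45%).

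In the thymidylate and folate cycle 5 of 7 measured genes were below 0, median -0.08. SLC19A1 had a log2 difference of -0.18 ± 0.08 and its treated arrays all lay below the DMSO arrays of their set. SHMT1, the cytosolic serine hydroxymethyltransferase, had -0.21 ± 0.13 (SE, n = 5). Supply of ribonucleotides stood close to 0. The pyrimidine list had 2 of 6 below 0 (median 0.01, or 0.04 without DMSO replicate 1), with CTP synthase CTPS1 at -0.18 and the UMP/CMP kinase CMPK1 at 0.15, or 0.08 without DMSO replicate 1. The purine list had 8 of 11 below 0 (median -0.02), or 6 of 11 without that array, with IMPDH2, which commits IMP to GMP, at 0.21 and ATIC, the last enzyme of IMP synthesis, at 0.17. These were 0.10 and 0.06 without DMSO replicate 1.

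Kinases and relatives of the enzymes were below 0 in 8 of 10 measured genes (median -0.08), and without DMSO replicate 1 in 7 of 10 (median -0.03). The uridine-cytidine kinases UCK1 and UCK2 had -0.13 each, and UCK1 had -0.08 without that array. Salvage and breakdown genes were split 7 below 0 to 6 above (median -0.01, or 0.02 with 6 below 0 without DMSO replicate 1), and PNP, the purine nucleoside phosphorylase, and HPRT1, which salvages hypoxanthine, had -0.18 and 0.21. HPRT1 went to -0.02 without DMSO replicate 1. All 3 measured genes of pool sanitation were below 0 (median -0.13), NUDT1, which removes oxidised purine nucleotides, at -0.21 and DCTPP1, which cleaves dCTP and its modified forms, at -0.13. None of them passed.

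Of the proteins that hand electrons to ribonucleotide reductase, 3 were measured and all were above 0 (median 0.12), but without DMSO replicate 1 the median was 0.01 and 1 of 3 was below 0. Glutaredoxin GLRX had 0.28 ± 0.14 and thioredoxin reductase TXNRD1 0.12 ± 0.13 (SE, n = 5), and TXNRD1 had 0.01 without that array. Among 3 measured transporters SLC29A2, a nucleoside transporter, had -0.20 and SLC25A36, a mitochondrial pyrimidine nucleotide carrier, 0.19. They had -0.09 and 0.02 without DMSO replicate 1. Subunits of ubiquitin ligases gave -0.14 for FZR1, the activator of the anaphase-promoting complex in G1, and 0.14 for SKP1, the adaptor of SCF ligases, with 1 of 4 below 0 and a median of 0.04. With DMSO replicate 1 left out, 3 of 4 were below 0 and the median was -0.04.

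**Figure D5:**
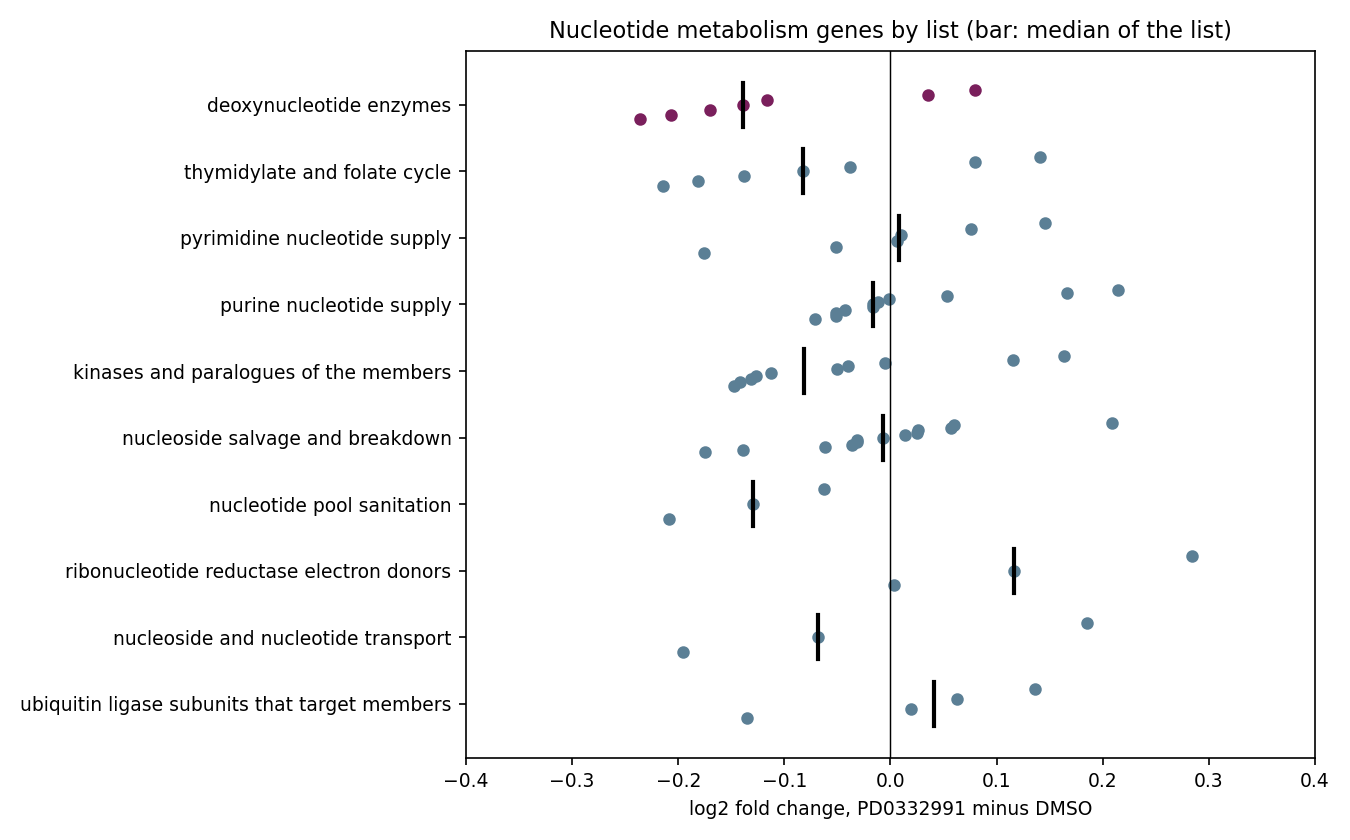
Log2 fold change of PD0332991 against DMSO for the 7 enzymes and for the measured genes of 9 lists around them; each point is a gene and each black bar the median of its list. The enzymes have a median of -0.14, the electron donors 0.12 (0.01 without DMSO replicate 1), and no gene shown passed the test.

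Profiles most like those of the 3 genes with the smallest p were sought among 14225 other genes, as the root mean square difference over the 10 arrays after centring each gene within array sets. For DUT these were KLF13 (0.049), VASH1 (0.050) and DVL2 (0.051), where the DUT profile itself departed from its mean by 0.145. RRM2 was nearest to CDCA7L (0.057), SFMBT1 (0.059) and NFATC3 (0.060), against 0.121 for its own departure. DCK was nearest to SMNDC1 (0.050), ZNF451 (0.066) and MCM6 (0.069), against 0.172. None of these neighbours passed the test of treatment. The centring removes offsets between array sets, which for DUT were 0.43 in favour of set 2 (limma adjusted p = 0.0369, where 3.53% of probe sets passed). The measure follows all differences between arrays, those of DMSO replicate 1 included.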

How the data were processed

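The deposited log2 values, 1 per gene-level probe set and array of Affymetrix exon arrays hybridised with biotin-labelled cDNA, come from RMA and Partek on build hg18, per the submitters' processing notes, without versions or parameters. RMA subtracts background, puts the probe values of all arrays on 1 distribution and combines the probes of a set, and fold changes of dim genes come out smaller. The deposited probe set values still differed in spread, with interquartile ranges of 3.18 to 3.68 per array. Detection calls were not used here. Of 21980 probe sets, 14432 carried 1 symbol, 2408 several and 5140 none in the platform annotation, and 0 symbols changed through Entrez identifiers (RefSeq, GRCh38.p14; 28 unmatched). The treatment effect came from lmFit and eBayes of limma 3.58.1 (R 4.3.3), 2-sided, with array set as covariate and with Benjamini-Hochberg adjustment over all probe sets at 0.05. The procedure was tested on simulated data with independent noise and no array that stood apart as DMSO replicate 1 did. Its pass condition covered only effects far larger than the enzyme differences. It therefore does not tell whether differences of their size would be called. The replicates are named biological in the labels. Pairs were tested by exact permutation within array sets. The genes, lists and tests were chosen with earlier results of these data known. Named were all measured enzymes, their counterparts in the pairs and the nearest profiles. From each list the 2 genes with the smallest p were named (the rule allowed up to 3), and PPAT for its value without DMSO replicate 1. The cyclin E and MCM genes were added for comparison after results were known. Alternatives covered the model, normalization, filters, weights and leaving out arrays. Figures used Matplotlib 3.10.9 under Python 3.11.15.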

Additional observations from a re-analysis of the deposited data

Results flagged for a closer look

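RRM2 on DMSO replicate 1 read 12.63 (log2) where the nearest of the other 4 DMSO arrays read 12.91, a gap of 0.739 of the whole range of the group, above Dixon's critical value for a group of 5. It was the only such value among 20 groups tested (7 enzymes and 3 pairs in both treatments), and chance gives about 1 in 20. The same array had the lowest DMSO value for RRM1 (9.96, gap 0.548 of the range), DCTD (9.50) and DCK (8.58), under the critical value. What sets this array apart was not tested.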

How the results depend on the processing

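Under all 22 alternatives run, 0 of 7 enzymes passed, where the smallest limma adjusted p of any enzyme was 0.211 (DCK, array weights), and RRM2, DUT, DCK and TYMS kept their sign throughout. The median of the 7 enzymes ran from -0.19 to -0.12. At a limma unadjusted p under 0.05, 3 were lower after quantile normalization (2.58% of all probe sets) and 4 with cyclic loess (2.75%). The count was 3 with array weights (4.64%) and 2 without both arrays numbered 1 (3.51%). It was 0 without array set in the model (2.23%), in set 1 alone (2.02%) and in set 2 alone (3.23%). With 1 array left out it was 0 to 3 (2.09% to 3.72%). No enzyme has a second probe set of its own, so that alternative gave no value. RRM1 turned to -0.0060 with cyclic loess, -0.16 with array weights, -0.050 in set 2 alone and -0.11 without both arrays numbered 1 (-0.14 to 0.12 with 1 array left out), DCTD to -0.0099 with array weights and -0.063 in set 2 alone, and TK1 to 0.036 in set 2 alone. Among other genes TK2 turned to 0.00062 after quantile normalization, 0.0090 after median centring and 0.085 in set 1 alone (-0.086 to 0.051 with 1 array left out), HPRT1 to -0.077 with array weights (-0.016 to 0.34), RRM2B to -0.042 without both arrays numbered 1 (-0.014 to 0.18), and in set 2 alone DGUOK to -0.064, SLC25A36 to -0.087 and SKP1 to -0.0099. The cause of these turns was not tested. The count of enzymes without overlap, all lower, was 2 with cyclic loess (1.57% of all probe sets) and 4 in set 2 alone (17.7%). It was 3 without both arrays numbered 1 (4.32%) and 1 to 3 with 1 array left out (1.84% to 3.05%).

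RRM2 minus RRM2B and DCK minus DGUOK kept their direction, but each lost its call under 13 of 16 alternatives. Both calls held with cyclic loess and with median centring (exact permutation, adjusted p = 0.0250). RRM2 minus RRM2B was -0.30 after quantile normalization (adjusted p = 0.050 for both pairs, at the threshold), -0.33 in set 1, -0.22 in set 2 and -0.18 without both arrays numbered 1, and -0.33 to -0.21 with 1 array left out (exact permutation, adjusted p = 0.0250 to 0.10 there). DCK minus DGUOK was -0.37, -0.44, -0.26 and -0.28 in the same order, and -0.43 to -0.30 (0.0250 to 0.10). Neither kept its call with any array left out except PD0332991 replicate 2; these fits have 60 assignments. Set 1, set 2 and the arrays not numbered 1 cannot give a p under 0.10, 0.333 and 0.0556. TK1 minus TK2 turned to 0.18 in set 2 and ran from -0.19 to 0.0078 with 1 array left out.

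Of all probe sets, 9 were lower and 2 higher. The counts were 1 and 1 with a replicate block in place of array set, where the smallest adjusted p of an enzyme was 0.908 and CCNE1 and CCNE2 had adjusted p values of 0.0621 and 0.0623. Replicate numbers were not taken as pairing the arrays, since deviations of same-numbered arrays from group means correlated at 0.04 to 0.54, under 0.1 for numbers 1 and 2 (-0.05 to 0.40 after removing array set means). Lower and higher counts were 14 and 4 with single-symbol probe sets, 50 and 13 with array weights, 0 and 0 in either set alone, and 1 to 20 and 1 to 3 with 1 array left out; higher counts were 1 without array set or after median centring. The interaction of treatment and array set called 0 probe sets under all 18 alternatives run (562 at an unadjusted p under 0.05 with all arrays). Those alternatives, and those on list genes, the median and the array set differences, were chosen after seeing the data. Dim genes are limited by the unknown signal over background.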

Other observations

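The array sets were also compared with each other, and 1 of the 7 enzymes, DUT, passed. With treatment as a covariate, DUT was 1.35-fold higher in set 2 than in set 1 (log2 difference 0.43, 95% confidence interval 0.22 to 0.64, limma adjusted p = 0.0369, where 3.53% of 21980 probe sets passed), beside a treatment difference of -0.24. All 4 arrays of set 2 but 1 lay above the highest array of set 1, with 8.19 to 8.51 against 7.72 to 8.20. DUT lost this call with any single array left out except DMSO replicate 1 (adjusted p = 0.0101 to 0.152) and kept it under the other 8 alternatives run. DCTD had a set difference of 0.34, with 10.01 to 10.18 in set 2 and 9.50 to 9.94 in set 1 (limma adjusted p = 0.122, and 0.0283 with array weights). TYMS showed no such offset, with 0.002 (95% confidence interval -0.19 to 0.20). The sets hold both treatments in equal number, and what separates them is not stated in the labels beyond the array names.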
